A study of Mus musculus with 24 samples.

Results

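The signature subunits of the BAF and PBAF chromatin remodelling complexes were followed in differentiating male C57/Bl6 mouse embryonic stem cells (mESCs). The 10 genes were *Arid1a*, *Arid1b*, *Dpf1*, *Dpf2*, *Ss18*, *Arid2*, *Pbrm1*, *Brd7*, *Phf10* and *Brd9*. They were chosen by name, with earlier results of these data known. All 10 were among the 25965 entries of the expression table, and all 10 were among the 13296 genes with a mean log2 rpm (a read count relative to library size) of at least 0 that were tested. Cells of all groups were expanded in 2i, weaned into DME HiHi differentiation medium, transduced with an shRNA retrovirus on day 2 and selected with puromycin on day 3. The hairpins targeted *Smarcc1* (Smarcc1.6 and Smarcc1.7) or *Smarca4* (Smarca4.4 and Smarca4.6), and the control was a nonsilencing hairpin (Nons). RNA was sequenced from each of these 5 series on days 4, 5, 6 and 7, so that there were 8 *Smarcc1* knockdown, 8 *Smarca4* knockdown and 4 Nons libraries. Nons replicate 2 was not analysed here, and each contrast with Nons therefore rests on a single Nons library per day. A genotype label calls the Smarca4 libraries a Smarcc knockdown, and the titles, which name Smarca4, were followed.

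SWI/SNF remodellers are multi-subunit machines that use an ATPase, SMARCA4 or SMARCA2, to slide or evict nucleosomes. They share a core built on SMARCC1, whose paralogue SMARCC2 is known from BAF and PBAF, and exist in several forms told apart by their signature subunits. BAF carries ARID1A or ARID1B, a DPF protein and SS18. PBAF carries ARID2, PBRM1, BRD7 and PHF10 in their place, and the noncanonical form ncBAF lacks an ARID subunit and carries BRD9, with SS18 shared between BAF and ncBAF. The mESC form of BAF is known for ARID1A and DPF2, while DPF1 is known from the BAF complex of neurons. The comparisons asked how the genes of these distinguishing subunits behaved as cells differentiated, and whether they differed when a core subunit or the ATPase was depleted.

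The knockdown comparisons rest on 4 hairpins, whose guide strands are shown with the seed, bases 2 to 8, in capitals. Each matched its target at full length (22 bases, mm10) and no transcript of another gene in the GENCODE annotation used.
Smarcc1.6: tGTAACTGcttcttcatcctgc
Smarcc1.7: tTGCTCATcttcttccttctga
Smarca4.4: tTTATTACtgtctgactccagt
Smarca4.6: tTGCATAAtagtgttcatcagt
Smarcc1.6 lies in coding exon 13 of 28 of *Smarcc1* (chr9:110177472-110177493) and Smarcc1.7 in coding exon 11 (chr9:110173911-110173932). Smarca4.6 lies in coding exon 22 of 34 of *Smarca4* (chr9:21670504-21670525) and Smarca4.4 in the 3′ UTR, in exon 34 (chr9:21703327-21703348). The longest run that any of the 4 sites shared with an annotated transcript of a signature subunit gene was 10 to 12 bases.

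The targeted genes were lower in the libraries named for them. *Smarcc1* was at 451, 259.8, 127 and 172 rpm in Nons on days 4 to 7, at 163, 61.5, 43.6 and 71.5 rpm with Smarcc1.6 and at 192, 109, 76.4 and 80.9 rpm with Smarcc1.7. Its mean over days fell by 1.33 on the log2 scale (SE 0.205, adjusted *p* = 0.00115; this and all other adjusted values are Benjamini-Hochberg values over the 13296 genes of a limma fit). *Smarca4* was at 222, 151, 90.4 and 160.3 rpm in Nons, at 56.0, 49.5, 50.03 and 42.2 rpm with Smarca4.4 and at 62.9, 36.3, 19.5 and 43.6 rpm with Smarca4.6, and its mean fell by 1.79 (SE 0.288, adjusted *p* = 0.00277). Every knockdown library was below the Nons library of its day. The libraries held 6829596 to 27472885 reads, and the smallest, Smarca4.4 on day 5, was followed by one of 15717152. The 3 reads taken as the least that can be told from none were worth 0.109 to 0.439 rpm, which covers counting error only. The pluripotency factor *Pou5f1* was at a median of 1406 rpm on day 4 and 227 rpm on day 7 (5 libraries each), and 7 of 8 pluripotency markers fell between these days. Libraries of the same day differed in the level of long transcripts as a class, which touches *Arid1a*, *Arid1b*, *Arid2* and *Pbrm1* and is described with them.

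**Figure D1:**
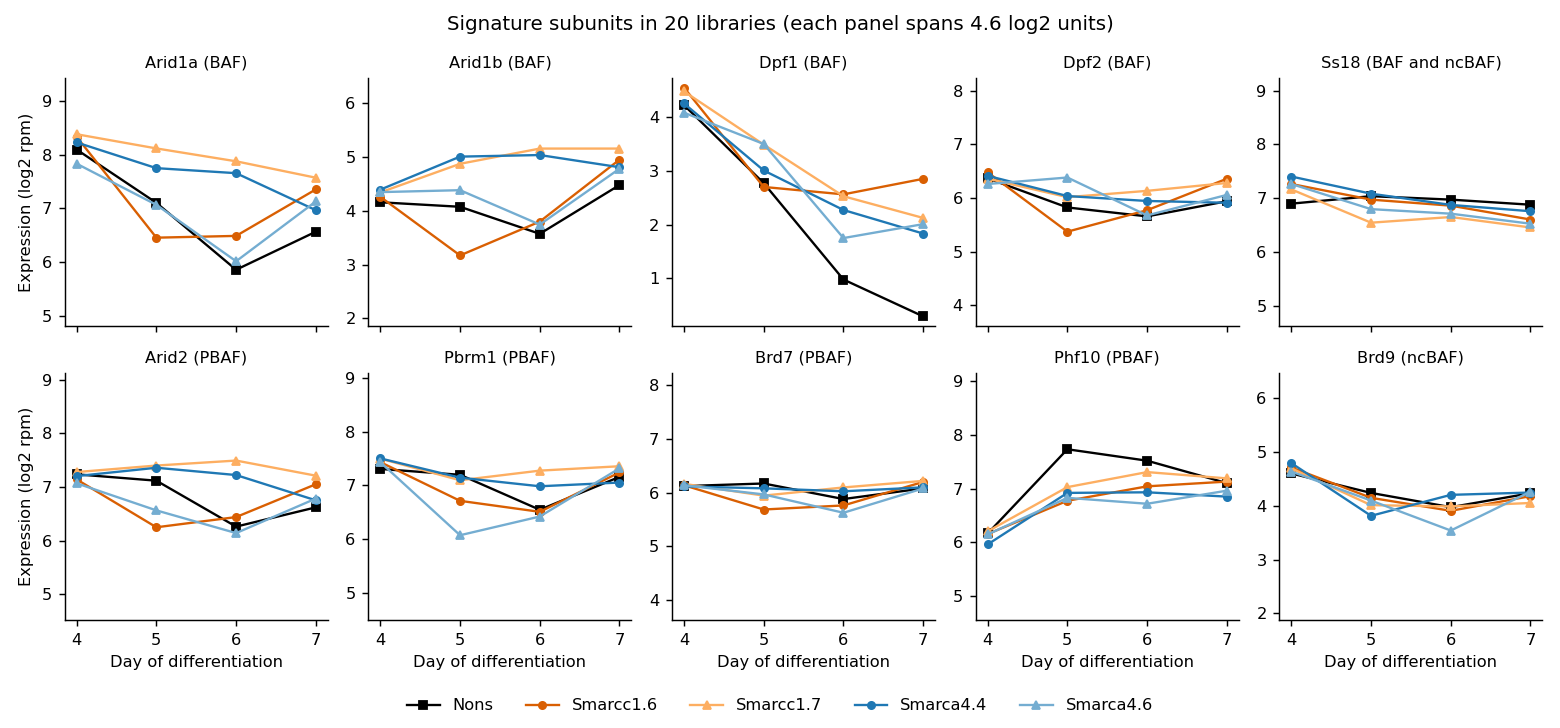
Expression of the 10 signature subunit genes (log2 rpm, vertical axis, the same span of 4.6 units in each panel) against day of differentiation in 20 libraries, with 1 line per series (black squares, Nons; orange, *Smarcc1* hairpins; blue, *Smarca4* hairpins). *Dpf1* descends from day 4 to day 6 in all 5 series and is lowest in Nons on days 6 and 7. *Phf10* steps up from day 4 to day 5 and is highest in Nons on days 5 and 6. The hairpin series of *Arid1a*, *Arid1b* and *Arid2* diverge on days 5 and 6.

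Per length of the longest protein-coding transcript, *Phf10* had the highest level of the 10 genes on each day by the median of 5 libraries. That transcript has 1663 bases for *Phf10*, whose annotated exons cover 4914 bases. The rank of *Phf10* thus depends on the length chosen, and other lengths were not tried. On day 4 it was at 37.4 to 44.3 rpm per kb, and its range overlapped that of *Ss18* (28.7 to 40.7), which in turn overlapped that of *Arid1a* (27.8 to 40.7). *Dpf2* (23.1 to 26.9), *Pbrm1* (19.99 to 22.9), *Brd7* (19.1 to 19.8) and *Arid2* (15.8 to 18.2 rpm per kb) followed without overlap. *Brd9* was at 9.99 to 11.4 and *Dpf1* at 7.35 to 10.2 rpm per kb on day 4, and these ranges overlapped. *Arid1b* was the lowest, at 1.58 to 1.86 rpm per kb. On day 7 *Phf10* stood alone at 69.3 to 87.7 rpm per kb. *Ss18*, *Dpf2*, *Pbrm1*, *Brd7*, *Arid1a* and *Arid2* then formed a run in which each range overlapped the next, from 21.1 to 28.3 rpm per kb for *Ss18* to 11.6 to 17.4 for *Arid2*. *Arid1b* (1.97 to 3.16) and *Dpf1* (0.531 to 3.13 rpm per kb) overlapped at the bottom of the order. By reads, *Dpf1* rested on 23 to 514 reads per library, *Brd9* on 96 to 667 and *Arid1b* on 187 to 677.

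Over the 3 days from day 4 to day 7, 4 of the 10 genes fell (*Dpf1*, *Arid1a*, *Ss18* and *Brd9*), 1 rose (*Phf10*) and 5 did not pass the test. Among all genes tested 28.8% fell and 35.7% rose, so that calls of this kind were common. The median log2 difference, day 7 minus day 4, was -0.32 over the 10 genes and 0.08 over all genes, and 8 of the 10 values were negative. In bulk RNA, fewer cells of a kind and less RNA per cell cannot be told apart.

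*Dpf1*, the double PHD finger gene of neuronal BAF, showed the largest change of the 10. On day 4 it was at 18.7 rpm in Nons, 23.5 and 22.3 rpm with Smarcc1.6 and Smarcc1.7, and 19.1 and 17.0 rpm with Smarca4.4 and Smarca4.6. On day 5 the values, in the same order, were 6.84, 6.51, 11.2, 8.05 and 11.3 rpm, and on day 6 they were 1.97, 5.92, 5.78, 4.84 and 3.37 rpm. On day 7 they were 1.23, 7.23, 4.37, 3.57 and 4.03 rpm. The ranges of days 4, 5 and 6 did not overlap, whereas days 6 and 7 did, and on the last 2 days Nons was the lowest of the 5 libraries. *Dpf1* fell by 2.74 on the log2 scale from day 4 to day 7 (SE 0.215, adjusted *p* = 2.38e-07), by 1.26 from day 4 to 5 and by 1.195 from day 5 to 6. *Dpf2*, its broadly expressed paralogue, was at 76.6 to 89.1 rpm on day 4, 41.4 to 83.3 on day 5, 50.5 to 70.1 on day 6 and 60.2 to 82.0 rpm on day 7. It fell by 0.46 from day 4 to 5 (SE 0.152, adjusted *p* = 0.0292), a call lost without Smarcc1.6 or either *Smarca4* hairpin (differences of -0.55 to -0.34), and its difference between days 7 and 4 was -0.29 (95% interval -0.62 to 0.04). Within libraries, the log2 rpm of *Dpf1* minus that of *Dpf2* went from a median of -2.14 on day 4 to -4.08 on day 7.

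*Phf10*, which encodes a PHD finger subunit of PBAF, was the member that rose. On day 4 it was at 71.6 rpm in Nons, 71.1 and 73.7 rpm with the *Smarcc1* hairpins 6 and 7, and 62.2 and 70.8 rpm with the *Smarca4* hairpins 4 and 6. On day 5 Nons reached 212 rpm, while the *Smarcc1* hairpins were at 109 and 130.3 rpm and the *Smarca4* hairpins at 121 and 113 rpm. All 5 series were higher on day 5 than any library of day 4, and the Nons value was the highest of all 20. On day 6 the values, in the order of day 4, were 183, 132, 158, 122 and 105 rpm, and on day 7 they were 137, 139.9, 146, 115 and 124 rpm. By day 7 Nons lay within the range of the knockdown libraries. *Phf10* rose by 1.04 on the log2 scale from day 4 to 5 (SE 0.113, adjusted *p* = 3.59e-05) and by 0.92 from day 4 to 7 (SE 0.113, adjusted *p* = 1.26e-05). It shares 470 bases, 9.56% of its exon bases, with the antisense gene *1600012H06Rik*, and the use of strand in counting is not given in the sources used here. *1600012H06Rik* was at a median of 41.7 rpm on day 4 and 49.5 rpm on day 5, and its part in the result was not tested.

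The promoters of the gene that fell most and the gene that rose most are shown because both were rich in CpG, in capitals. The windows run from 250 bases before to 50 bases after the RefSeq start (GRCm38.p6), and 8 of the 10 genes had an entry, with 10 windows in all.
Dpf1, chr7:29303755-29304054, plus strand: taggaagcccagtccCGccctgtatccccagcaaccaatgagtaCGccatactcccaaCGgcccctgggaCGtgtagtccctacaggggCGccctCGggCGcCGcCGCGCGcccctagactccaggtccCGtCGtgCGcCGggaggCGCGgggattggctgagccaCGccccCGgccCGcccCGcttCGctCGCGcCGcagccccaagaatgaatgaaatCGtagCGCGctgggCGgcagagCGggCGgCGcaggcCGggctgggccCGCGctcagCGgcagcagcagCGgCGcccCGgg
Phf10, chr17:14961211-14961510, minus strand: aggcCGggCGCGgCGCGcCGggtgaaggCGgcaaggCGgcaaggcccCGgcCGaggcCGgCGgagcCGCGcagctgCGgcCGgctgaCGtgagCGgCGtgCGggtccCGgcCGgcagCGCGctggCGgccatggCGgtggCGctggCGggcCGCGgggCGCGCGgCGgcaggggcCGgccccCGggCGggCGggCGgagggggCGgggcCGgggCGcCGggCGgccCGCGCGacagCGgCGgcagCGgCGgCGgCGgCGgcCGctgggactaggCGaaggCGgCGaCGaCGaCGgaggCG
*Dpf1* held 39 CpG and *Phf10* 62, and the 10 windows of the 8 genes held 20 to 62, against a median of 7 over 32851 RefSeq promoters. The letters GGGCGG, searched on both strands, occurred 4 times in the *Dpf1* window and 5 times in that of *Phf10*, and were present in 35.7% of all promoters. CCAAT occurred 2 times in the *Dpf1* window and was not found in that of *Phf10*; 37.4% of all promoters held it. These 2 CpG-rich promoters belonged to a gene that fell and to one that rose, and a relation of CpG content to the changes was not tested.

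The paralogues *Arid1a* and *Arid1b*, alternative ARID subunits of BAF, took different courses. *Arid1a* was at 274 rpm in Nons, 322 and 333 rpm with the *Smarcc1* hairpins 6 and 7, and 299.8 and 228 rpm with the *Smarca4* hairpins 4 and 6 on day 4, and at 94.8, 164, 190.3, 125 and 140.1 rpm on day 7. The ranges of the 2 days did not overlap, and *Arid1a* fell by 1.13 on the log2 scale (SE 0.388, adjusted *p* = 0.0209). Without Smarca4.4 the fall was 1.04 and missed the threshold (adjusted *p* = 0.0762). *Arid1b* was at 17.9, 19.2, 20.3, 21.04 and 20.4 rpm on day 4 and at 22.3, 31.0, 35.7, 28.1 and 27.6 rpm on day 7, in the same order. All 5 series were higher on day 7 and these ranges did not overlap either, but the difference of 0.50 (95% interval -0.29 to 1.29) did not pass the test. With a trend on transcript length and GC content removed from each library, as described in the next paragraph, the difference was 0.55 (adjusted *p* = 0.000514), in a fit that called 75.4% of all genes between these days. Within each library the log2 rpm of *Arid1b* minus that of *Arid1a* was -4.07 to -3.48 on day 4, -3.29 to -2.68 on day 5, -2.72 to -2.27 on day 6 and -2.41 to -2.09 on day 7. The within-day SD of this difference was 0.226, against 0.549 for *Arid1b* and 0.61 for *Arid1a* alone, so the 2 genes deviated together among the libraries of a day.

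On days 5 and 6 the long members spread widely, and the spread followed transcript length over the whole table. *Arid1a* was at 87.8 rpm with Smarcc1.6 and 278 rpm with Smarcc1.7 on day 5, and at 64.7 rpm with Smarca4.6 and 202 rpm with Smarca4.4 on day 6. *Arid2*, the ARID subunit of PBAF, was at 76.1 and 169 rpm in the same 2 libraries of day 5 and at 70.6 and 149 rpm in those of day 6. In both genes the 2 hairpins to the same target thus stood on opposite sides of the mean of that day. They did not stand on opposite sides of Nons throughout, as *Arid1a* on day 6 was above Nons by 1.80 with Smarca4.4 and by 0.16 with Smarca4.6. On days 4 and 7 the log2 differences between 2 hairpins in *Arid1a* were smaller, at -0.16 to 0.40. For each library, the deviation of every gene from its mean of the day was regressed on log2 transcript length and GC content together. This used the 11985 tested genes with an annotated transcript (90.1%). Taken singly, Spearman's rho of the deviations ran from -0.431 to 0.557 with length and from -0.446 to 0.599 with GC content. In the regression, the slope on length ranged from -0.227 per doubling (Smarcc1.6, day 5) to 0.267 (Smarcc1.7, day 6). The mean deviation of *Arid1a*, *Arid1b*, *Arid2* and *Pbrm1*, whose transcripts exceed 7000 bases, followed this slope with Pearson's *r* = 0.976 and Spearman's rho = 0.97 over 20 libraries, which share days and series. For *Dpf1*, *Brd9* and *Phf10*, the 3 shortest, *r* was 0.481 and rho 0.513. Of the 3 genes of intermediate length, *Brd7* followed the slope at *r* = 0.741 and *Dpf2* at 0.574, while *Ss18* was at -0.324. Among 1024 tested genes of at least 7000 bases, the median deviation ran from -0.394 to 0.638 between libraries. The part of this trend in the differences of single genes was not tested, beyond the fit with the trend removed, which was chosen after seeing the data.

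**Figure D2:**
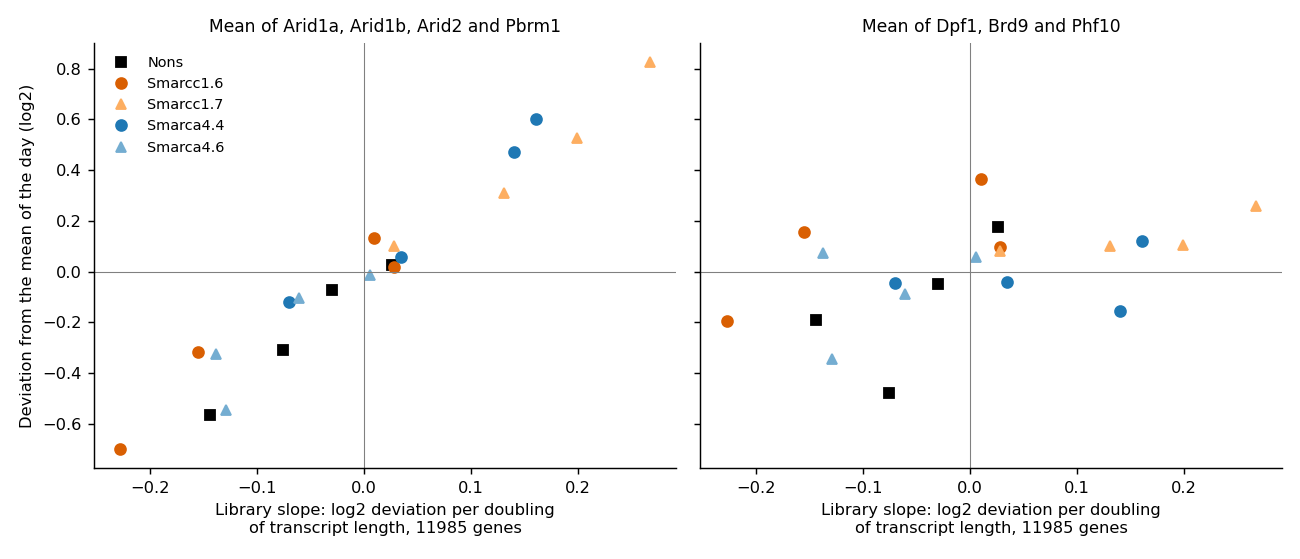
Mean deviation from the mean of the day (log2 rpm, vertical axis) of the 4 longest (left) and the 3 shortest (right) genes, 1 point per library. The horizontal axis is the slope of all genes' deviations on log2 transcript length, with GC content in the same regression. The long genes lie along a line from -0.699 in Smarcc1.6 on day 5 to 0.826 in Smarcc1.7 on day 6 (*r* = 0.976), and the short genes scatter (*r* = 0.481).

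The other BAF and ncBAF members, *Ss18* and *Brd9*, changed less than *Dpf1* and *Arid1a*. *Ss18* was at 119 rpm in Nons, 154 and 143 rpm with the *Smarcc1* hairpins 6 and 7, and 169 and 154 rpm with the *Smarca4* hairpins 4 and 6 on day 4, and at 118, 97.1, 87.7, 108 and 92.0 rpm on day 7. Nons was the lowest of the 5 libraries on day 4 and the highest on day 7. Between these 2 days Nons changed by -0.02 on the log2 scale, while the 4 hairpin series moved by -0.74 to -0.65. On the way, Nons rose by 0.14 from day 4 to 5. Over the 3 groups *Ss18* fell by 0.47 (SE 0.128, adjusted *p* = 0.00623). *Brd9*, whose bromodomain protein marks ncBAF, was at 24.3, 26.2, 25.9, 27.7 and 24.9 rpm on day 4 and at 18.8, 18.1, 16.6, 19.0 and 19.2 rpm on day 7. It was lower in all 5 series, and the ranges of days 4 and 5 did not overlap. *Brd9* fell by 0.58 from day 4 to 5 (SE 0.148, adjusted *p* = 0.00857) and by 0.47 from day 4 to 7 (SE 0.148, adjusted *p* = 0.0131), the latter a call that was lost without either *Smarcc1* hairpin (adjusted *p* = 0.0506 and 0.0666).

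Of the PBAF members besides *Phf10*, none passed the test between days 7 and 4. *Brd7*, a bromodomain subunit, was the steadiest of the 10 genes at 69.3 to 71.7 rpm on day 4 and 67.6 to 74.5 rpm on day 7 (difference -0.01, 95% interval -0.27 to 0.26). *Arid2* was at 134 to 155 rpm on day 4 and 98.5 to 148 rpm on day 7, and the difference of -0.35 had an interval of -0.98 to 0.27. With the length and GC trend removed, *Arid2* passed at -0.32 (adjusted *p* = 0.0364), while *Pbrm1* (-0.18, adjusted *p* = 0.0757) and *Brd7* (0.004) did not. That fit called 75.4% of all genes between days 7 and 4. *Pbrm1*, which encodes a subunit with several bromodomains, was at 158 to 181 rpm on day 4, 67.2 to 147 on day 5, 85.6 to 155 on day 6 and 133 to 164 rpm on day 7, a dip in which days 4 and 5 did not overlap. From day 4 to 5 *Pbrm1* changed by -0.11 on the log2 scale in Nons and by -1.36 to -0.36 in the hairpin series. From day 5 to 6 the changes were -0.65 in Nons and -0.20 to 0.35 in the hairpin series. Over the 3 groups its difference was -0.51 from day 4 to 5 (adjusted *p* = 0.0839) and 0.50 from day 6 to 7 (adjusted *p* = 0.102). With the length and GC trend removed these were -0.54 (adjusted *p* = 0.000143) and 0.50 (adjusted *p* = 0.000398). For these steps that fit called 58.8% and 52.6% of all genes, against 38.7% and 27.5% without the removal. *Pbrm1* overlaps *Gm5459*, which was at 0 to 0.381 rpm, and *2010107H07Rik*, at 2.87 to 20.6 rpm.

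**Figure D3:**
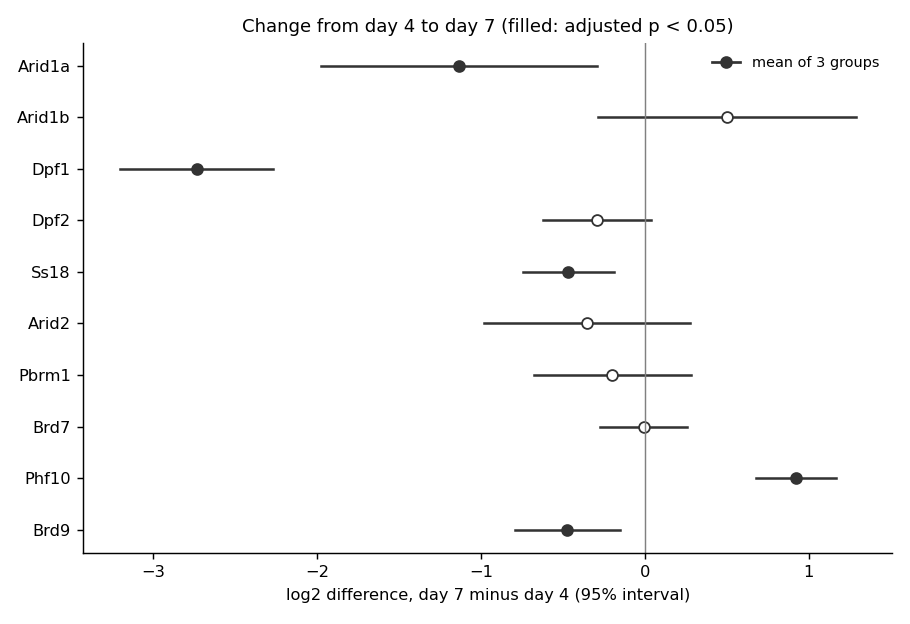
log2 difference between day 7 and day 4 (horizontal axis), the mean of the 3 groups, with its 95% interval, for each of the 10 genes; filled points passed the test at an adjusted *p* below 0.05. *Dpf1* stands apart at -2.74 and *Phf10* is the only filled point above 0, at 0.92.

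By single steps, 3 genes fell (*Dpf1*, *Dpf2* and *Brd9*) and 1 rose (*Phf10*) from day 4 to 5, where 19.2% of all genes fell and 19.5% rose. From day 5 to 6 *Dpf1* fell and no member rose, against 15.3% and 17.0% of all genes. From day 6 to 7 limma called 0 of the 10 genes, against 27.5% of all genes in either direction; 1, *Pbrm1*, had an unadjusted *p* under 0.05, and limma-voom on the recovered reads also called 0. The log2 rpm of *Phf10* minus that of *Dpf2*, PHD finger subunits of PBAF and BAF, had a median of -0.20 on day 4, 1.01 on day 5, 1.17 on day 6 and 0.91 on day 7. That of *Brd9* minus *Brd7* had medians of -1.47, -1.93, -1.91 and -1.85. For both pairs the range of day 4 overlapped with no later day.

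**Figure D4:**
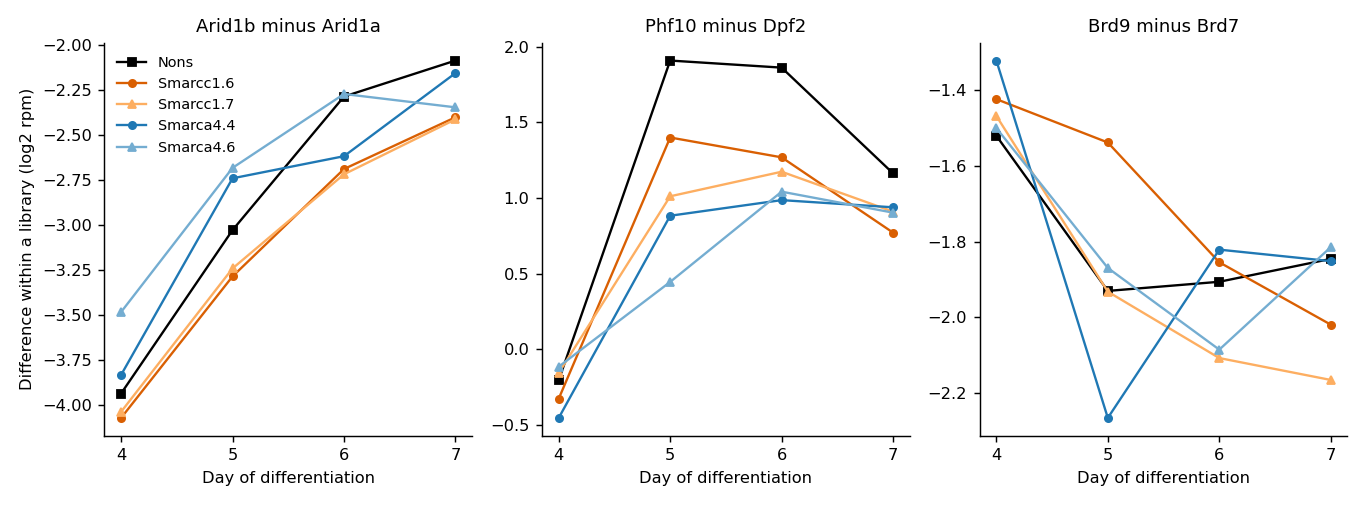
Difference in log2 rpm between 2 signature subunit genes within a library (vertical axis) against day of differentiation, 1 line per series, for *Arid1b* minus *Arid1a*, *Phf10* minus *Dpf2* and *Brd9* minus *Brd7*. The *Arid1b* to *Arid1a* difference moves from medians of -3.94 on day 4 to -2.35 on day 7, and the lines of *Phf10* minus *Dpf2* step up after day 4, highest in Nons on days 5 and 6.

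In *Smarcc1* knockdown, *Dpf1* was higher than in Nons and no other member passed the test. The difference, averaged over days, was 1.09 on the log2 scale (SE 0.197, 95% interval 0.67 to 1.52, adjusted *p* = 0.00318), a 2.14-fold higher level. 1 of the 10 genes was higher and 0 were lower, where 7.54% of all genes were higher and 3.08% lower. At an unadjusted *p* under 0.05 there were 2 genes, *Dpf1* and *Phf10*, and limma-voom called 1. In *Smarca4* knockdown, *Dpf1* was higher by 0.77 (SE 0.197, 95% interval 0.35 to 1.20, adjusted *p* = 0.0344) and *Phf10* lower, at -0.46 (SE 0.104, 95% interval -0.69 to -0.24, adjusted *p* = 0.0183), where 4.75% of all genes were higher and 1.96% lower. With the 4 libraries of a hairpin treated as a replicate block, neither *Smarca4* call passed (adjusted *p* = 0.231 for *Dpf1* and 0.119 for *Phf10*). Both contrasts share the same 4 Nons libraries, so their values for a gene are not independent.

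By value, the *Dpf1* difference was larger on the later days in both knockdowns. In *Smarcc1* knockdown the 2 hairpins averaged 0.29 above Nons on day 4, 0.32 on day 5, 1.57 on day 6 and 2.20 on day 7. In *Smarca4* knockdown the corresponding values were -0.05, 0.48, 1.03 and 1.63. Of 8 libraries, 7 were above the Nons library of their day in each knockdown. The difference in the day 7 minus day 4 change from that in Nons was 1.91 for *Smarcc1* knockdown (SE 0.558, unadjusted *p* = 0.00478, adjusted *p* = 0.216) and 1.68 for *Smarca4* knockdown (SE 0.558, unadjusted *p* = 0.0102, adjusted *p* = 0.715), and neither passed in the limma fit. With all libraries thinned to the depth of the smallest, neither knockdown difference of *Dpf1* passed (adjusted *p* = 0.0796 and 0.235), with differences of 0.86 and 0.66. Without either *Smarca4* hairpin that in *Smarca4* knockdown stayed at 0.77 to 0.78 but did not pass (adjusted *p* = 0.161 and 0.177).

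*Phf10* differed most in the middle of the time course. In *Smarca4* knockdown the 2 hairpins averaged -0.11 relative to Nons on day 4, -0.86 on day 5, -0.69 on day 6 and -0.20 on day 7, and all 8 libraries were below Nons. In *Smarcc1* knockdown the values were 0.01, -0.83, -0.34 and 0.06, the mean over days was -0.28 (95% interval -0.50 to -0.05, adjusted *p* = 0.126), and 5 of 8 libraries were below Nons. Centred on the median gene, the *Smarcc1* difference was -0.33 and passed (adjusted *p* = 0.0453). Without either *Smarca4* hairpin the *Smarca4* difference stayed at -0.47 to -0.46 but did not pass (adjusted *p* = 0.115 and 0.135). Since Nons had 1 library per day, how far its values of 212 and 183 rpm on days 5 and 6 would vary between cultures was not measured.

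**Figure D5:**
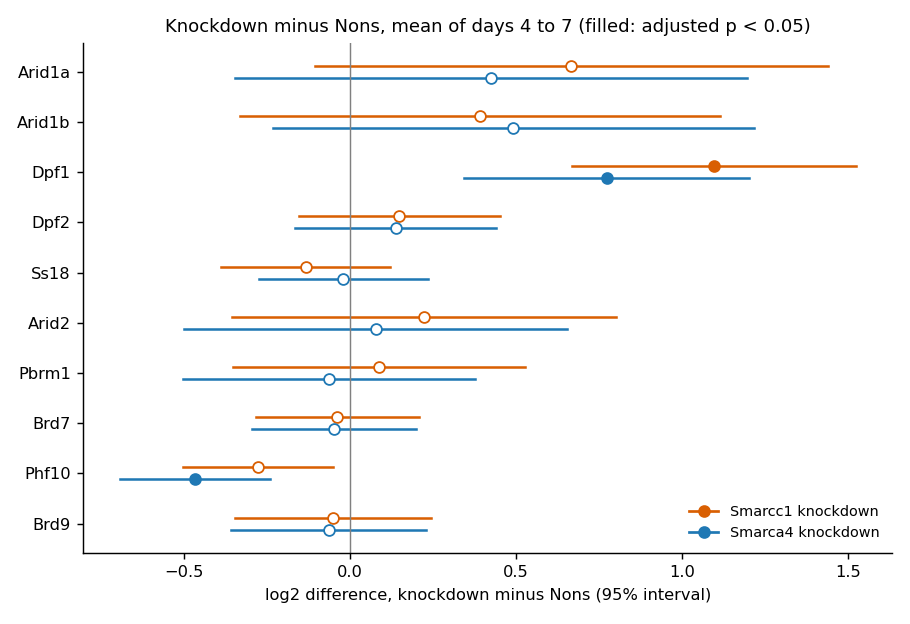
log2 difference between each knockdown and Nons, averaged over days 4 to 7 (horizontal axis), with 95% intervals; orange, *Smarcc1* knockdown; blue, *Smarca4* knockdown; filled points passed the test at an adjusted *p* below 0.05. *Dpf1* is filled in both knockdowns, at 1.09 and 0.77, *Phf10* is filled in *Smarca4* knockdown at -0.46 (both *Smarca4* calls were lost with a replicate block), and the intervals of *Arid1a* and *Arid1b* are the widest.

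For the remaining 8 genes the 95% intervals included 0 in both contrasts. *Brd7*, *Brd9*, *Ss18* and *Dpf2* had differences of -0.13 to 0.15, with bounds from -0.39 to 0.45. The long genes were less well determined. *Arid1a* was at 0.67 (-0.11 to 1.44) in *Smarcc1* knockdown and 0.42 (-0.35 to 1.20) in *Smarca4* knockdown, and *Arid1b* at 0.39 (-0.33 to 1.12) and 0.49 (-0.23 to 1.21). On days 6 and 7 both were higher in all 4 knockdown libraries than in Nons, whose length slopes on those days were -0.144 and -0.0758. *Arid2* and *Pbrm1* lay between -0.06 and 0.22. Between the knockdowns, the differences of the 10 genes ran from -0.11 to 0.32, with bounds from -0.69 to 0.87. None passed in the limma fit, 1 (*Phf10*) had an unadjusted *p* under 0.05 and limma-voom called 0, where 4.09% of all genes were called. The changes from day 4 to 7 likewise gave 0 calls in either knockdown relative to Nons by limma and by limma-voom, with 1 unadjusted *p* under 0.05 in each (*Dpf1*), where 0.459% of all genes were called for *Smarcc1* and 0.0827% for *Smarca4* knockdown. *Ss18* stood at -0.67 in both (95% intervals -1.39 to 0.05).

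Some markers of cell state also differed between the knockdowns and Nons. Among all genes tested, 7.54% were higher and 3.08% lower in *Smarcc1* knockdown, and 4.75% and 1.96% in *Smarca4* knockdown. Of 8 pluripotency markers, 5 were higher in *Smarcc1* and 3 in *Smarca4* knockdown, none was lower, and none was at 0 in any library. Their summed level was 911 to 3943 rpm in Nons, 1235 to 5142 in *Smarcc1* knockdown and 1077 to 4693 rpm in *Smarca4* knockdown. Of 4 neural markers, 1, *Sox1*, was higher in both knockdowns, and the neural sum was 65.7 to 135 rpm in Nons, 73.9 to 135 in *Smarcc1* knockdown and 57.8 to 182 rpm in *Smarca4* knockdown. Of 4 epiblast markers 2 were lower in both. Of the 4 endoderm and the 4 mesoderm markers 1 each was expressed enough to be tested; *Gata4* was higher in both knockdowns and *Eomes* did not pass in either. Of the 3 fibroblast markers tested 1 was higher in *Smarcc1* knockdown, and both trophoblast markers tested were lower there, whereas none of these 5 passed in *Smarca4* knockdown. The part of these markers in the differences of *Dpf1* and *Phf10* was not tested.

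Among the other subunits of the remodellers, 17 of the 18 looked up were in the table and 15 were tested. *Bcl11a*, a zinc finger subunit known from neuronal and lymphoid cells, was lower in both knockdowns, at -0.87 in *Smarcc1* (SE 0.192, adjusted *p* = 0.0109) and -1.07 in *Smarca4* knockdown (SE 0.192, adjusted *p* = 0.00529). On day 4 it was at 26.9 rpm in Nons and 14.8 to 21.3 rpm in the knockdown libraries. *Bcl11b*, its paralogue, was lower in *Smarca4* knockdown at -1.26 (SE 0.319, adjusted *p* = 0.033), at 0.366 to 4.19 rpm over all libraries. The other 13 did not pass in either contrast. Between days 7 and 4, 5 of the 15 rose and 3 fell, where 35.7% of all genes rose and 28.8% fell. *Smarcd3* rose by 1.26 and *Smarce1* by 0.58, whereas *Bcl11a* fell by 3.17, *Smarcd1* by 1.19 and *Actl6a*, an actin-related subunit of the progenitor forms, by 1.15.

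For each signature subunit, the gene outside the 10 with the most similar profile was taken by Pearson's *r* of log2 rpm over the 20 libraries, which share days, series and the length trend. *Dpf1* was closest to *Zbtb45* (*r* = 0.978), *Phf10* to *Otub2* (0.961), *Arid1a* to *Pprc1* (0.979), *Arid1b* to *Ube4b* (0.97) and *Ss18* to *Zfp207* (0.891). The others were *Gpaa1* for *Dpf2*, *Ankrd11* for *Arid2*, *Tnpo1* for *Pbrm1*, *Dlat* for *Brd7* and *Cops8* for *Brd9*, at 0.922 to 0.957 with the exception of *Tnpo1* at 0.97. Among the 10 genes themselves, *Arid1a* and *Arid2* had the highest within-day correlation, 0.95. Both followed the length slope of the libraries, at *r* = 0.939 and 0.966. *Dpf1* and *Phf10* correlated at -0.71 over all 20 libraries, across their opposite day courses, but at -0.18 within days.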

How the data were processed

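RNA from 20 libraries was measured by RNA-seq with single-end reads of 75 bp. The authors trimmed the reads, aligned them to mm10 (HISAT2 in the submitters' processing notes) and deposited log2 rpm values per gene, made in SeqMonk. The annotation release and the use of strand are not given in the sources used here. Each library's lowest value equals 0.9 of a read, and from it 100% of values below 1000 reads came out whole (tolerance 0.1), which gave the totals. There were 66 repeated gene symbols.

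The 13296 genes whose log2 rpm averaged 0 or more were tested with limma (version 3.58.1, R 4.3.3; a linear model with moderated variances and a mean-variance trend). A mean was fitted for each of 12 combinations of group and day, with 8 residual degrees of freedom, all from hairpin pairs; nothing states that libraries came from separate cultures, so *p*-values may measure technical spread. The threshold was a Benjamini-Hochberg adjusted *p* of 0.05. Groups were taken from sample titles. Summaries used Python 3.11.15. The fit was tested on simulated data with errors drawn independently for each library. Of 200 genes given a log2 change of 1 in *Smarcc1* knockdown it recovered 69.5%, with 1 false call. In the real data, deviations of a series correlated between days at -0.206 to 0.823, which the simulation did not copy.

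The members and lists (other subunits; pluripotency, epiblast, mesoderm, endoderm, neural, trophoblast and fibroblast markers) were chosen with earlier results of these data known. Genes named are the 10 members, the 2 targets, other subunits called in a knockdown contrast, and for each member the most similar gene; *Smarcd1*, *Smarcd3*, *Smarce1* and *Actl6a* were named after their values were seen. Alternatives were other filters, 1 added to rpm, centring, quantile normalization, thinning, limma-voom, an additive model, a replicate block, and leaving out hairpins or the smallest library. Transcript lengths and sites came from GENCODE vM21.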

Additional observations from a re-analysis of the deposited data

Results flagged for a closer look

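For each of the 10 genes, the deviations from the mean of the day were compared within the 4 Nons, 8 *Smarcc1* knockdown and 8 *Smarca4* knockdown libraries, which makes 30 groups. A single library stood far from the rest in 3 of them, where chance gives about 1 in 20. *Dpf2* was at 41.4 rpm with Smarcc1.6 on day 5, a deviation of -0.55 on the log2 scale against -0.06 to 0.30 in the other 7 *Smarcc1* libraries. On the same day *Dpf2* was at 83.3 rpm with Smarca4.6, a deviation of 0.46 against -0.20 to 0.11 in the other 7 *Smarca4* libraries. From day 4 to 5 *Dpf2* fell by 0.46; the difference was -0.34 without Smarcc1.6 and -0.55 without Smarca4.6, and neither value passed (adjusted *p* = 0.128 and 0.0711). *Ss18* in Nons on day 4, at 119 rpm, deviated by -0.30 against 0.15 to 0.23 on the later days.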

How the results depend on the processing

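The number of the 10 genes called is given for each comparison. With the length and GC trend removed it was 8 between days 7 and 4, 2 between days 6 and 5, 5 between days 7 and 6 and 1 (*Dpf1*, 1.56) for the *Smarcc1* change relative to Nons, where that fit called 75.4%, 50.6%, 52.6% and 2.79% of all genes. At a mean of at least 10 rpm, which leaves out *Dpf1*, it was 0 in *Smarcc1* knockdown, 1 in *Smarca4* knockdown and 0 between days 6 and 5. In the same order, 6.22%, 3.48% and 30.74% of the 9307 genes kept by that filter were called. In *Smarca4* knockdown the count was 1 with 1 added to rpm, with quantile normalization, after thinning and in the additive model. These settings called 6.16%, 4.99%, 4.39% and 6.94% of all genes. In *Smarcc1* knockdown the count was 2 with centring and 0 after thinning, where 10.97% and 8.31% of all genes were called. The additive model gave 7 between days 5 and 4 and 1 between days 7 and 6, where it called 47.8% and 36.9% of all genes. Centring and leaving out the smallest library each gave 1 between days 7 and 6, where they called 27.72% and 31.51%. Without 1 hairpin at a time the *Smarca4* count ranged from 0 to 2, and it was 0 without either *Smarca4* hairpin. Of all genes called, the share that was higher in *Smarcc1* knockdown was 71.0%, and 53.7% with quantile normalization or 44.8% with the trend removed. Beyond the construction of each alternative, the causes were not tested.

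Hairpin numbers pair no cultures, and deviations of a series correlated between days at -0.206 to 0.823. With the replicate block of the series (correlation 0.217) the *Smarca4* count was 0, with *Dpf1* at 0.77 (adjusted *p* = 0.231) and *Phf10* at -0.46 (adjusted *p* = 0.119). That fit called 1.94% of all genes in *Smarca4* knockdown.

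Of 713 values for single genes, 16 changed sign, none of a gene that had been called. Against Nons with the trend removed, *Pbrm1* was at -0.0571 in *Smarcc1* and *Arid2* at -0.025 in *Smarca4* knockdown; *Arid2* was also at -0.0214 without the smallest library. After thinning *Brd9* was at 0.0668 and 0.0159 in the 2 knockdowns. *Brd7* between days 7 and 4 was at 0.00219 with quantile normalization and 0.00395 with the trend removed. Without 1 hairpin at a time, differences from Nons in *Smarcc1* knockdown ranged from -0.0261 to 0.812 for *Arid1b*, -0.0886 to 0.536 for *Arid2*, -0.0781 to 0.254 for *Pbrm1* and -0.117 to 0.0427 for *Brd7*. In *Smarca4* knockdown they ranged from -0.123 to 0.0829 for *Ss18*, -0.169 to 0.325 for *Arid2*, -0.242 to 0.119 for *Pbrm1*, -0.111 to 0.0167 for *Brd7* and -0.128 to 0.00221 for *Brd9*. The fall of *Smarca4* itself was 1.59 to 1.99, and 1.59 did not pass without Smarca4.6 (adjusted *p* = 0.0685). Depth limits *Dpf1*, at 23 reads in Nons on day 7.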
